A study of Mus musculus with 4 samples.

Results

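The hemoglobin genes of the mouse were examined in fetal liver, in 10 genes chosen by their known function: the embryonic globins Hba-x, Hbb-y and Hbb-bh1, the adult globins Hba-a1, Hba-a2, Hbb-b1, Hbb-b2, Hbb-bs and Hbb-bt, and Ahsp, which encodes a chaperone of free alpha globin. Of these 10 genes, 8 had a probe on the array, out of 22911 genes named there, while no probe was matched to Hbb-bs or Ahsp. The 8 genes were read by 9 probes, 3 for embryonic and 6 for adult globins, because Hba-a1 had 2 probes. The signal was well above background on each array for all 9, and all 9 passed the filters on dim and variable probes.

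Hemoglobin carries oxygen as a tetramer of alpha-type and beta-type chains, each with a heme group. The embryonic chains, zeta (Hba-x), epsilon-y (Hbb-y) and beta-h1 (Hbb-bh1), are made by primitive red cells that arise in the yolk sac and circulate in the fetus, and the adult chains are made mainly by definitive red cells, which at this stage mature in the fetal liver. The replacement of embryonic by adult chains is called hemoglobin switching, and it depends on the regulators Bcl11a, Klf1, Sox6 and Myb among others.

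The livers were taken at 14.5 days post coitum (dpc) from fetuses of C57BL/6J dams, which received a control diet (CD, 4.3% of energy as fat) or a high-fat diet (HFD, 60% of energy as fat) during gestation. There were 2 arrays per diet. The sources used here do not say how many fetuses or dams stand behind each array, and whole liver contains blood, hematopoietic cells and hepatoblasts. The comparison asks whether hemoglobin gene expression in fetal liver differed with the diet of the dam.

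The slide and the scan were shared by all 4 arrays. The 75th percentile of probe intensity, by which each array was scaled, was 1073 and 704 under CD and 969 and 909 under HFD, so that CD replicate 2 was the dimmest. The labels give female for all arrays, without saying whether the dam or the fetus is meant. On the log2 scale after scaling, the probe of Xist, the RNA that coats the inactive X chromosome, read -8.29 and -0.65 in CD replicates 1 and 2, and -6.84 and -0.74 in HFD replicates 1 and 2. The probe of Ddx3y, a gene of the Y chromosome, read -1.56 and -7.67 under CD and -1.22 and -7.82 under HFD, in the same order. Replicate 1 of each diet therefore carried Y-linked transcripts and replicate 2 of each diet carried Xist, and differences within each replicate number are given beside the results that turn on them.

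The promoters of 4 members are shown because the genes that they head showed contrasting patterns over the arrays: Hba-x and Hbb-y were low on 1 array, and Hba-a1 and Hbb-bt were not. Each sequence is the 150 bases before the start of the gene, 5′ to 3′ on the coding strand (RefSeq, GRCm38.p6), at chr11:32276450-32276599 (plus strand) for Hba-x, chr11:32283522-32283671 (plus strand) for Hba-a1, chr7:103853208-103853357 (minus strand) for Hbb-y and chr7:103813924-103814073 (minus strand) for Hbb-bt. The letters in capitals are matches, on either strand, to the motifs named in the next paragraph, and no match overlapped another.
Hba-x: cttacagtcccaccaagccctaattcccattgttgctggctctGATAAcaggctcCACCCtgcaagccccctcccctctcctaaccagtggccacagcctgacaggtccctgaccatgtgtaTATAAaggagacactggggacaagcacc
Hbb-y: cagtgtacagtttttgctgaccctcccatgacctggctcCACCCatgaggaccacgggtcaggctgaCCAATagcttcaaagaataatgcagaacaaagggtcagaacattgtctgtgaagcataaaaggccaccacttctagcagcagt
Hba-a1: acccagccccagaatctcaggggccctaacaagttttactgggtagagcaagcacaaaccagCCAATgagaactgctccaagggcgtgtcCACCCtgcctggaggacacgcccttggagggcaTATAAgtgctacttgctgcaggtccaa
Hbb-bt: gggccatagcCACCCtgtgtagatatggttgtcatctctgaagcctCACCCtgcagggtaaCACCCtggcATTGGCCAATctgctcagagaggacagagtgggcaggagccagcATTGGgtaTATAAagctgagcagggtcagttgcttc

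A promoter was given for 6 members, which are these 4, Hba-a2 and Hbb-bs. CACCC, the core of the sites bound by factors of the Klf family, was found in 6 of the 6 windows and in 37.4% of 32817 mouse promoters cut to the same length. CCAAT was found in 5 of 6 windows, all but that of Hba-x, and in 24.5% of all promoters. TATAA was found in 5 of 6, all but that of Hbb-y, and in 14.2% of all promoters. GATAA, the core of sites bound by Gata factors, was found in 1 of 6, that of Hba-x, where it lay 107 bases before the start, and in 13.4% of all promoters. The windows of Hba-a1 and Hba-a2 shared an identical run of 297 of the 300 bases around their starts, whereas Hba-x shared no run longer than 10 bases with any other of the 5. These matches describe letters in a window, and no binding was measured.

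The alpha-type genes lie in 1 cluster on chromosome 11, in the order Hba-x, Hba-a1, Hbq1b, Hba-a2 and Hbq1a. The beta-type genes lie on chromosome 7 on the minus strand, and from Hbb-y the reading order runs through Hbb-bh1, Hbb-bh2, Hbb-bh3 and Hbb-bs to Hbb-bt. C57BL/6J mice carry Hbb-bs and Hbb-bt as their adult beta genes. Hbb-b1 and Hbb-b2 are the adult beta genes of another haplotype of the same locus, so that the transcripts read by their probes in these livers are uncertain. The same holds for the near-identical pair Hba-a1 and Hba-a2, and values of such probes are given under the gene that names them.

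Before scaling, the adult globins read nearly the same intensity on all 4 arrays, whereas the embryonic globins varied. The highest unscaled intensity of a probe was 1.03 to 1.11 times its lowest for the 6 adult globin probes and 1.92 to 8.23 times for the 3 embryonic ones. After scaling, CD replicate 2 minus CD replicate 1 was 0.45 to 0.68 for the adult and -2.01 to 0.33 for the embryonic probes. The differences between diets (HFD minus CD) were 0.57 to 1.17 on the log2 scale for the embryonic and -0.09 to -0.04 for the adult globins. None of the 9 probes passed the cutoffs of an unadjusted limma p of 0.05 with a 2-fold change, and all had an adjusted p of 1.00. In bulk liver RNA, fewer cells of a type and less RNA per cell cannot be told apart.

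Hba-x encodes the zeta chain, the embryonic alpha-type chain. Under CD its probe read an intensity of 52182 and 8488, and under HFD of 37323 and 69867. CD replicate 2 stood far below the other 3 arrays, and CD replicate 1 lay between the HFD arrays, so the groups overlapped. After scaling, the log2 levels were 5.60 and 3.59 under CD (mean 4.60 ± 1.42, SD, n = 2) and 5.27 and 6.26 under HFD (5.77 ± 0.71, SD, n = 2). The difference was 1.17 with a standard error of 0.76 (2.25-fold, limma adjusted p = 1.00), smaller than the SD of the CD arrays. Leaving out CD replicate 2 gave 0.16, and leaving out CD replicate 1 gave 2.17. Of the alternatives, Hba-x passed the cutoffs only without CD replicate 1 (limma adjusted p = 0.225) and without HFD replicate 1 (difference 1.67, limma adjusted p = 1.00), where a diet was left with 1 array that was assumed to vary like the others. Within replicate number 1, the arrays with Y-linked transcripts, Hba-x was lower under HFD (-0.34), and within number 2, the arrays with Xist, it was higher (2.67), values of 1 array against 1 that allow no test.

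Hbb-y encodes the epsilon-y chain, an embryonic beta-type chain. Its probe read 460793 and 178991 under CD, and 421932 and 499446 under HFD. CD replicate 2 was again the lowest, and the other 3 arrays were close to each other. The log2 levels were 8.75 and 7.99 under CD (8.37 ± 0.54, SD, n = 2) and 8.77 and 9.10 under HFD (8.93 ± 0.24, SD, n = 2). The groups did not overlap after scaling, but the gap between CD replicate 1 and HFD replicate 1 was 0.02. The difference was 0.57 with a standard error of 0.32 (limma adjusted p = 1.00). Leaving out CD replicate 2 gave 0.19, and leaving out CD replicate 1 gave 0.94. The difference was 0.02 within replicate number 1 and 1.11 within number 2.

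Hbb-bh1 encodes the beta-h1 chain, the other embryonic beta-type chain, whose gene lies between Hbb-y and the adult beta genes. Its probe read 34274 and 28209 under CD, and 47819 and 54188 under HFD, and both HFD arrays were above both CD arrays. The log2 levels were 4.998 and 5.32 under CD (5.16 ± 0.23, SD, n = 2) and 5.62 and 5.90 under HFD (5.76 ± 0.19, SD, n = 2). Here CD replicate 2 was not the lower CD array once the arrays were scaled. The difference was 0.60 with a standard error of 0.21 (1.52-fold, limma adjusted p = 1.00). The unadjusted p was under 0.05, but the change was short of 2-fold. It ranged from 0.44 without CD replicate 1 to 0.76 without CD replicate 2, and it was 0.63 within replicate number 1 and 0.57 within number 2. Its unadjusted p was under 0.05 in 7 of 15 alternative settings, and among those where it was not were the fits without CD replicate 1, without HFD replicate 1 and without HFD replicate 2.

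**Figure D1:**
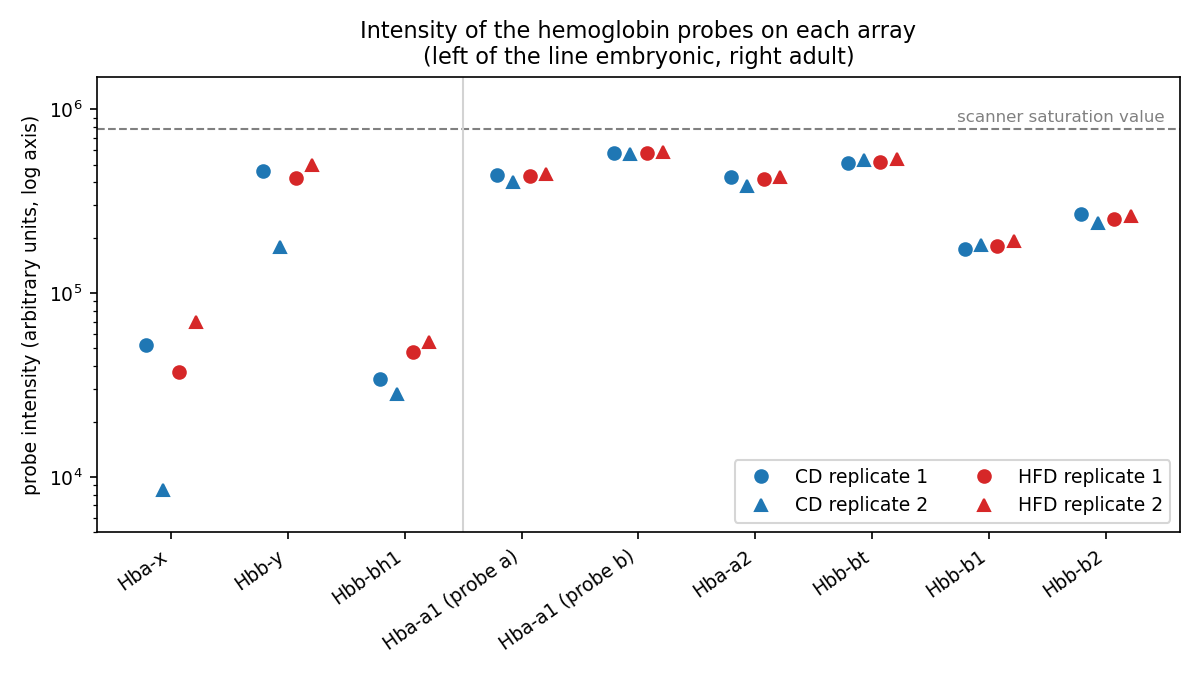
Intensity of each hemoglobin probe on each array before scaling (log axis, arbitrary units), with CD in blue, HFD in red, replicate 1 as circles and replicate 2 as triangles. The adult probes on the right sit together on all 4 arrays, while Hba-x and Hbb-y drop on CD replicate 2 to 8488 and 178991, and the dashed line marks the scanner's saturation value of 778593.

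Among the 9 member probes, 0 passed the cutoffs in either direction, against 0.293% of the 41332 tested probes for higher and 0.477% for lower expression under HFD. An unadjusted p under 0.05 with a higher level under HFD was found for 1 of 9 member probes (Hbb-bh1) and for 1.58% of all tested probes. Both HFD arrays were above both CD arrays for 2 of 9 (Hbb-y and Hbb-bh1), and for 19.5% of all tested probes, so that this count was near the background. Both HFD arrays were below both CD arrays for 0 of 9, and for 11.1% of all tested probes. Over all tested probes, 0 had an adjusted p under 0.05 by limma and 1383 an unadjusted p under 0.05. With 2 arrays per diet, an exact two-sided permutation test of a single probe cannot give a p below 0.333.

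The adult alpha chains were read by 3 probes with 10 spots each. Probe a of Hba-a1 read 438432 and 402078 under CD and 434029 and 442167 under HFD. Probe b of Hba-a1 read 578101 and 567502 under CD and 578538 and 583433 under HFD. The probe of Hba-a2, the neighbouring and nearly identical alpha gene, read 427365 and 383603 under CD and 417211 and 426155 under HFD. The diets overlapped for probe a and for Hba-a2, and for probe b the gap between the nearest CD and HFD arrays was far smaller than the SD between its 10 spots on an array (31512 to 42447). The coefficient of variation between the 10 spots of a probe on an array was 3.96 to 7.99%, and CD replicate 2 was below CD replicate 1 in 10, 7 and 10 of the 10 spots. After scaling, the differences between diets were -0.05 and -0.09 for the probes of Hba-a1 and -0.05 for Hba-a2 (standard errors 0.22 to 0.25, limma adjusted p = 1.00).

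The adult beta chains gave the same picture. The probe of Hbb-bt, the beta-t gene that C57BL/6J mice carry, read 510842 and 527634 under CD and 518502 and 536676 under HFD. The probe of Hbb-b1 read 172814 and 182309 under CD and 179746 and 192282 under HFD, and that of Hbb-b2 read 267646 and 241053 under CD and 252705 and 262661 under HFD. The groups overlapped for each of the 3 genes. The differences after scaling were -0.09 for Hbb-bt, -0.04 for Hbb-b1 and -0.09 for Hbb-b2 (standard errors 0.22 to 0.28, limma adjusted p = 1.00). The sign of the adult differences followed the scaling and the array left out: they were 0.02 to 0.07 with no scaling between arrays and 0.14 to 0.30 without CD replicate 2.

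**Figure D2:**
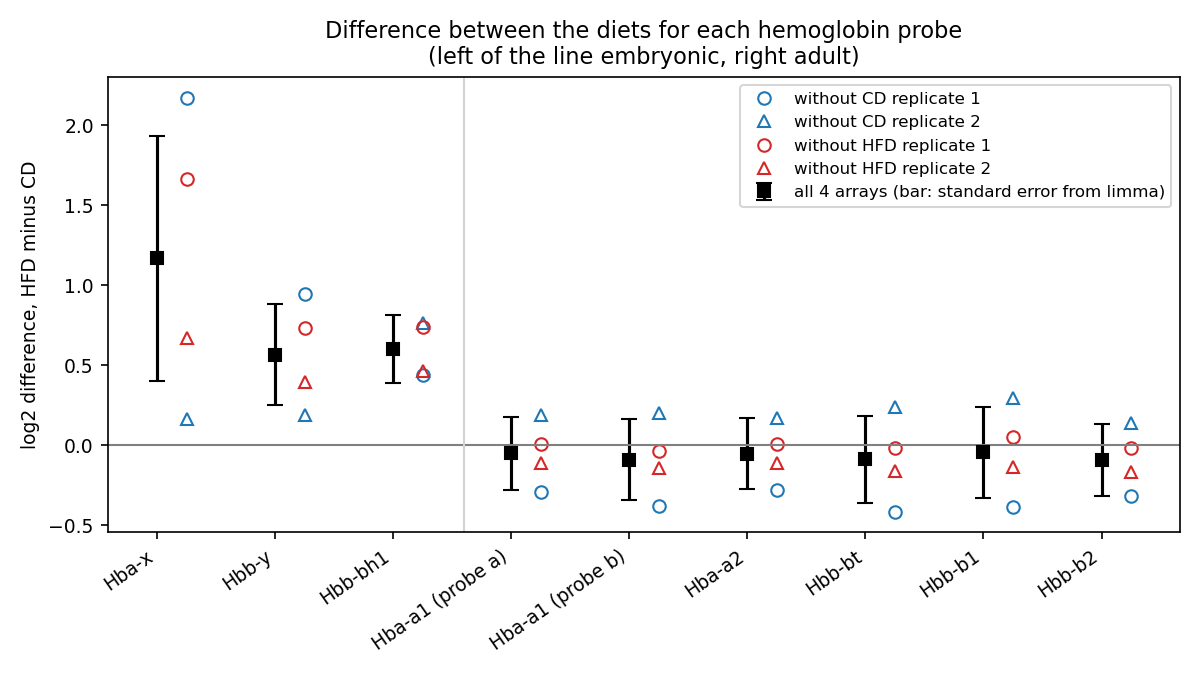
Log2 difference in level (HFD minus CD) of each hemoglobin probe with all 4 arrays (black squares, bars are the standard errors from limma) and with each array left out in turn (open symbols). Hba-x moves between 0.16 and 2.17 with the CD array that is left out, Hbb-bh1 stays between 0.44 and 0.76, and the adult probes lie on both sides of 0.

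For Hba-x and Hbb-y, the CD arrays differed from each other by more than the diets did. After scaling, CD replicate 2 minus CD replicate 1 was -2.01 for Hba-x, and 0.448% of tested probes were as low or lower. The same difference was -0.76 for Hbb-y, with 11.3% as low or lower, and 0.33 for Hbb-bh1. For the adult probes it was 0.45 to 0.68. The SD of this difference over all tested probes was 0.58, against 0.34 between the HFD arrays. HFD replicate 2 minus HFD replicate 1 was 1.00 for Hba-x, 0.34 for Hbb-y and 0.27 for Hbb-bh1, so replicate 2 was the higher of the HFD arrays for all 3 embryonic genes.

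The embryonic genes were also set against the adult ones on the same array, a difference that dividing each array by 1 constant cannot change. With each probe centred on its mean over the arrays, the embryonic mean minus the adult mean was 0.26 and -1.11 under CD (-0.42 ± 0.97, SD, n = 2) and 0.22 and 0.62 under HFD (0.42 ± 0.28, SD, n = 2). CD replicate 1 lay between the HFD arrays and CD replicate 2 far below all others. The difference between diets was 0.85, and it was 0.16 without CD replicate 2, -0.03 within replicate number 1 and 1.73 within number 2. By gene, the difference between diets relative to the adult probes was 1.24 for Hba-x, 0.63 for Hbb-y and 0.67 for Hbb-bh1. As a score over chosen genes, it was given no test.

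**Figure D3:**
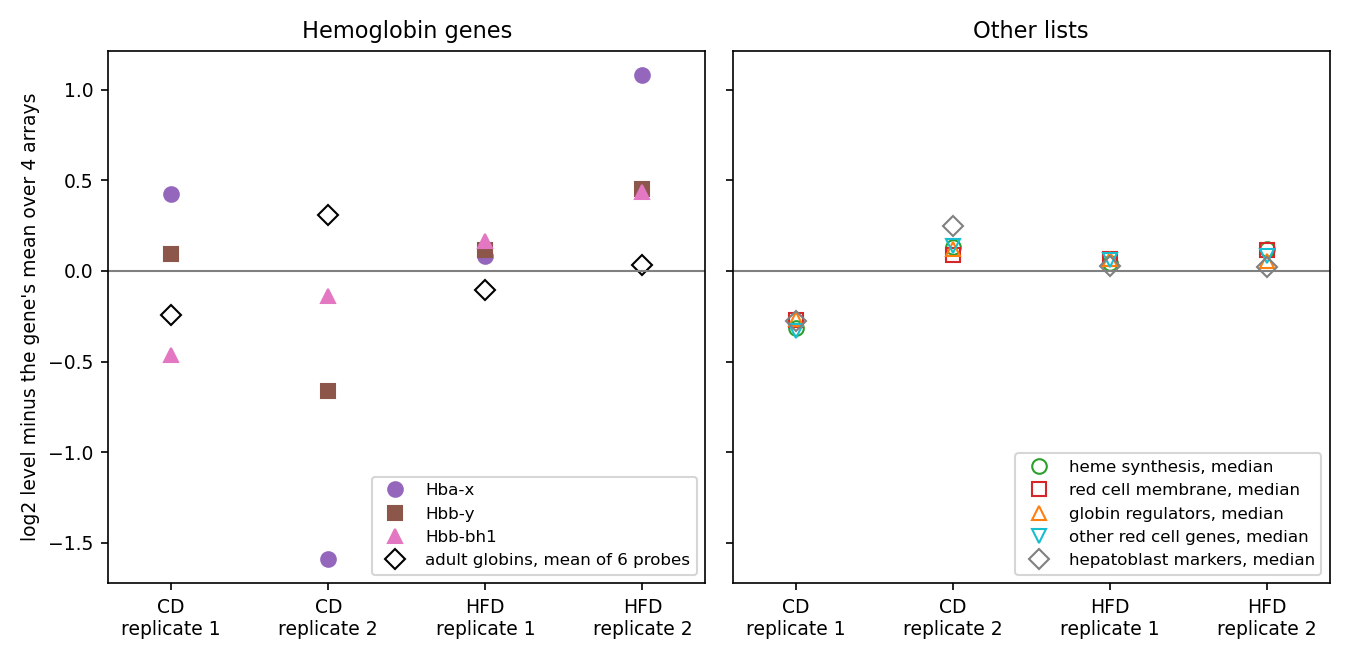
Log2 level minus the gene's mean over the 4 arrays, for the embryonic globins and the mean of the 6 adult probes (left) and for the medians of 5 other gene lists (right), on each array. Hba-x and Hbb-y fall on CD replicate 2, where the adult globins (0.31) and the medians of the other lists are above 0.

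Hemoglobin probes were among the brightest on the arrays. Ordered by mean intensity among the tested probes, those of Hba-a1 stood at 1 and 5, Hbb-bt at 3, Hba-a2 at 8, Hbb-y at 13, Hbb-b2 at 108, Hbb-b1 at 248, Hbb-bh1 at 1414 and Hba-x at 1637. The adult probes read 22.2 to 74.9% of the scanner's saturation value and the embryonic probes 1.09 to 64.1%, and no spot of an array was saturated. Bright probes as a whole differed little between arrays: the SD of the log2 intensity difference between the CD arrays was 0.17 among the brightest 100 probes, 0.23 among the next 900, and 0.58 over all tested probes. The median of that difference was -0.16 among the brightest 100 and -0.58 over all. Hbb-y, at -1.36, lay apart from the other bright probes, while the adult probes lay at -0.16 to 0.08. Scaling by the 75th percentile subtracts a further -0.61 from this difference, so that the adult globins, nearly equal in intensity, came out higher on CD replicate 2. The part that brightness had in the small adult differences was not tested.

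**Figure D4:**
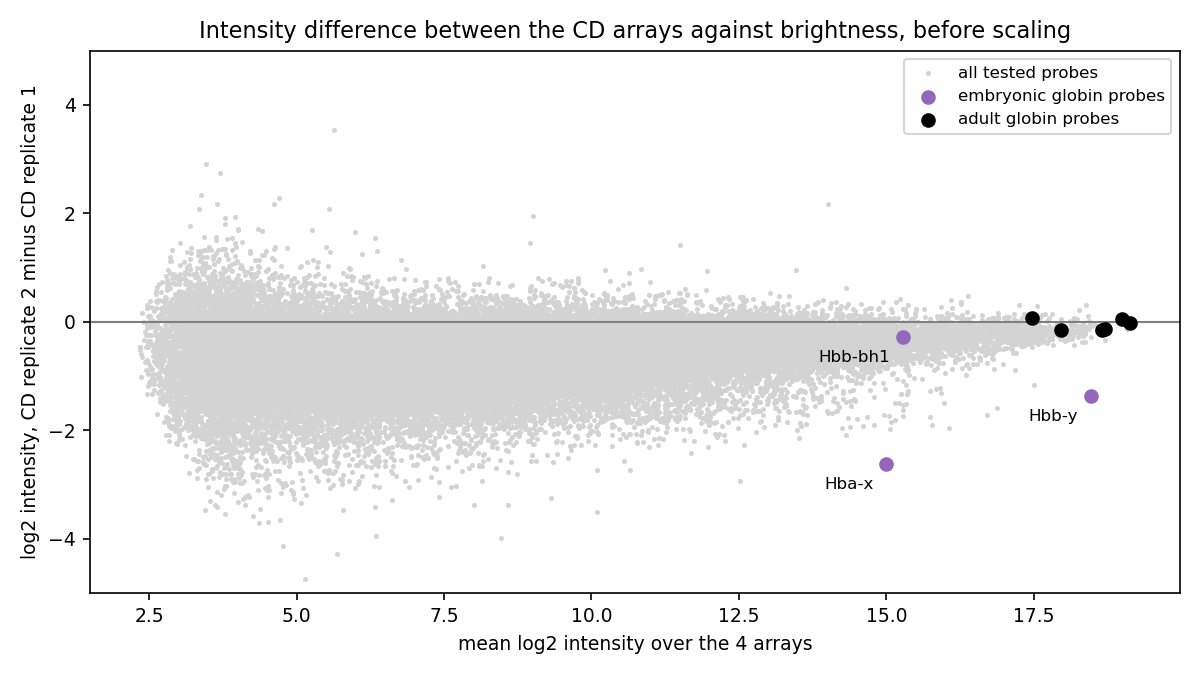
Log2 intensity difference between the CD arrays (replicate 2 minus replicate 1, before scaling) against the mean log2 intensity over the 4 arrays, for each tested probe (grey), the embryonic globin probes (purple) and the adult globin probes (black). The grey cloud narrows to the right, the adult probes lie within it near 0, and Hba-x (-2.62) and Hbb-y (-1.36) lie below it.

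The minor globins were dimmer. Hbq1a and Hbq1b, the theta globin genes of the alpha cluster, differed between diets by 0.04 and -0.08 (standard errors 0.26 and 0.28). Hbb-bh2, a beta-type gene between Hbb-bh1 and the adult genes, read an intensity of only 12.8 and 5.5 under CD and 22.4 and 14.2 under HFD, and was well above background on 1 of the 4. Its difference of 0.97 (standard error 0.32, limma adjusted p = 1.00) had an unadjusted p under 0.05 and was short of 2-fold. It passed the cutoffs without CD replicate 1 and without HFD replicate 2, and was 0.09 with normexp background correction. Mb, which encodes the oxygen store myoglobin of muscle, read 56.0 and 49.7 under CD and 48.3 and 33.5 under HFD, with a scaled log2 difference of -0.50 (standard error 0.26, limma adjusted p = 1.00). Cygb, the cytoglobin gene of fibroblasts and stellate cells, differed by 0.05 (standard error 0.33), with log2 levels of 1.55 and 0.66 under CD and 1.12 and 1.19 under HFD. Ngb, which encodes neuroglobin, was not well above background on any array and was not tested, and Hbb-bh0 and Hbb-bh3 had no probe matched.

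By the medians of its lists, the rest of the red cell program did not share the low value of CD replicate 2. Of 12 genes of heme synthesis, 12 were tested and 0 passed the cutoffs in either direction. A higher mean under HFD was found for 11 and a lower mean for 1, and for 22745 of all 41332 tested probes the mean was higher. The median log2 difference was 0.19, against 0.03 over all tested probes. CD replicate 2 was below CD replicate 1 for 0 of the 12, with a median difference of 0.45. Over the 41332 tested probes it was below for 19596, with a median of 0.03. Hepatoblast markers gave 0 of 12 and a median of 0.50. Before scaling, the median difference of the heme synthesis genes was -0.16. The carriers Slc25a37, which imports iron into mitochondria, and Tmem14c, which moves heme precursors, differed by 0.09 and 0.19 (standard errors 0.25 and 0.22). For 3 of the 12 both HFD arrays were above both CD arrays, among them Alas2, the first enzyme of the pathway in red cells (difference 0.30, limma adjusted p = 1.00), as was so for 19.5% of all tested probes.

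Of 16 genes of the red cell membrane, 0 passed the cutoffs, and the median difference was 0.17. A higher mean under HFD was found for 15 and a lower mean for 1, against a higher mean for 22745 of 41332 tested probes. Both HFD arrays were above both CD arrays for 7 of the 16, against 19.5% of all tested probes. Slc4a1, the anion exchanger band 3, had log2 levels of 7.44 and 7.58 under CD and 7.74 and 7.83 under HFD (difference 0.27, standard error 0.17). Epb41, a protein of the membrane skeleton, differed by 0.42 (standard error 0.19) and Rhd, of the Rh complex, by 0.24 (standard error 0.19). CD replicate 2 was below CD replicate 1 for 2 of the 16. Of 12 other red cell genes, such as Car2, the carbonic anhydrase gene (difference 0.01), Prdx2, a peroxiredoxin gene (0.19), and Hemgn (0.21), 0 passed, 11 had a higher mean under HFD, and CD replicate 2 was below CD replicate 1 for 0. Both HFD arrays were above both CD arrays for 3 of these 12.

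Of 22 regulators of globin genes and red cell formation, 0 passed the cutoffs, 13 had a higher and 9 a lower mean under HFD, and the median difference was 0.13. Both HFD arrays were above both CD arrays for 7 of the 22 and below them for 2, against 19.5% and 11.1% of all tested probes. CD replicate 2 was below CD replicate 1 for 3 of the 22. Zfpm1, the cofactor of Gata1, differed by -0.01, Gata1 itself by 0.15 and Epor, the erythropoietin receptor gene, by -0.08 (standard errors 0.24, 0.21 and 0.33). In these 4 lists of 12, 16, 12 and 22 tested genes, 0 had an unadjusted p under 0.05, and all had a limma adjusted p of 1.00. The medians of all 4 lists were lowest on CD replicate 1: within replicate number 1 the median differences between diets were 0.34 to 0.38 and within number 2 they were -0.07 to 0.01. Without CD replicate 1 they were -0.06 to 0.02. Hba-x and Hbb-y, whose differences were larger within number 2, did not share this pattern. Hbb-bh1, like these lists, was lowest on CD replicate 1. The low value of CD replicate 1 was not particular to red cell genes. The adult globin mean and the medians of the hepatoblast, macrophage, megakaryocyte and granulocyte markers were also lowest on CD replicate 1. The medians of the trophoblast and endothelial markers were not.

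Markers of other cells were set beside these results. Hepatoblast markers were bright, with a signal well above background on each array for 12 of 12 and a median difference of -0.01, and Serpina1a, Alb and Afp, which encode secreted liver proteins, differed by -0.00, -0.07 and -0.01. Of 12 trophoblast markers, 11 had a probe and 9 were well above background throughout, and for 7 of the 11 the HFD arrays both lay below the CD arrays. Among the 6 tested markers this held for 3, against 11.1% of all tested probes. Of the 6 that were tested, 1 passed the cutoffs, Psg17, which encodes a pregnancy-specific glycoprotein and was lower under HFD (difference -3.05, standard error 0.68, limma adjusted p = 1.00). Tpbpa, a gene of the placental spongiotrophoblast, had log2 levels of 3.01 and 4.80 under CD and 1.00 and -1.01 under HFD. It was left out of the test by the filter on variable probes, as was Prl3b1, a placental lactogen gene (1.03 and 3.27 against -0.996 and -2.31). The same filter left out Prl8a8 (-0.28 and 1.66 against -3.05 and -4.98) and Psg21 (-1.19 and 0.80 against -3.58 and -4.81). The count of 1 among the 6 tested markers therefore does not cover these genes, which were all lower under HFD. The summed scaled level of the list was 62.8 and 63.4 under CD and 46.9 and 50.2 under HFD. Gcm1 made up most of it on 3 of the 4 arrays, and without it the sum was 12.6 and 43.9 under CD and 3.62 and 1.76 under HFD. For Tpbpa and Prl3b1 CD replicate 2 was the highest array, where Hba-x and Hbb-y were lowest. Gcm1 did not follow them: its log2 levels were 5.65 and 4.28 under CD and 5.43 and 5.60 under HFD. The part of other tissue in the hemoglobin values was not tested. Among macrophage, megakaryocyte, granulocyte and endothelial markers, 0 of 10, 8, 8 and 7 tested genes passed the cutoffs, and the medians were -0.11, 0.18, -0.03 and -0.08.

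The genes whose pattern over the 4 arrays lay nearest to the embryonic globins were Epp13, Wsb2, Olfr704, Atp8b5 and Lepr, the leptin receptor gene, at distances of 0.05 to 0.16 from their mean centred profile among 16391 genes. All 5 of the nearest genes were lowest on CD replicate 2 and highest on HFD replicate 2, as their choice by this profile required. Their differences between diets, tied to the same choice, were 0.69 to 0.80 with limma adjusted p values of 1.00. Hbb-bh1 departed from this mean profile, as it was lowest on CD replicate 1. Nearest to the adult globins were Ak8, H2ac20, H2ac11, Cabp4 and Itgb7, at 0.03 to 0.04, with differences of -0.10 to -0.06. With 4 arrays and so many genes, near profiles describe these arrays only.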

How the data were processed

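The authors hybridised Cy3-labeled cRNA to Agilent SurePrint G3 mouse arrays and read the images with Agilent Feature Extraction 11.0.1.1. The deposited intensity of each spot was background-subtracted and spatially detrended, with no scaling between arrays, and the deposited flags are scores of 0 or 1. The authors' normalized signal table, used as an alternative, equals the intensity divided by 1 constant per array within 0.1%. Per the labels, the design holds biological replicates whose origin is not stated further, so p-values measure the spread between these samples.

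From these files, spots of a probe were averaged on the log2 scale without outlier spots and the 75th percentile of each array was subtracted. Following the study's methods, probes below the 20th percentile of any 1 array (14980) were left out. The study's CV filter is stated for values on a log scale. Here probes with a CV over 50% of the linear values under both diets (284) were left out. This removed Tpbpa, Prl3b1, Prl8a8 and Psg21 but no member. The fit by limma 3.58.1 in R 4.3.3 was run on 41332 of 56596 probes (HFD minus CD, 2 against 2, no covariates) with Benjamini-Hochberg adjustment. Other steps used numpy 2.4.6, pandas 2.3.3 and, for plots, matplotlib 3.10.9 in Python 3.11.15. Transcripts on the array were matched to RefSeq genes of GRCm38.p6, which named 32994 of 56605 probes, and each gene of a list was read by its brightest probe. The text names every member and minor globin, genes called in a list and the 5 genes nearest to each profile. It also names genes among the 3 brightest of the red cell, hepatoblast and trophoblast lists. Alas2, Prl8a8, Psg21, Ddx3y and Xist were named after their values were seen. The rule also took in the 3 brightest genes of the macrophage, megakaryocyte, granulocyte and endothelial lists, which are given by counts only, and 1 more gene, whose values are not given here. The members and lists were chosen with earlier results of these data known. The number of arrays limits the precision. The limma fit was tested on simulated levels with the same spread for every probe.

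Alternatives were quantile normalization, normexp with an offset of 50 (on median brightness), the authors' table, a signal floor of 5, other filters, the methods' t-test in its equal-variance and Welch forms, a replicate block, each array left out, and other handling of several probes per gene. Values with no scaling and within each replicate number were added after seeing the data.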

Additional observations from a re-analysis of the deposited data

How the results depend on the processing

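Of the alternatives, those that changed the scaling, background correction, source of values, filters or test gave 0 member probes past the cutoffs, as with all arrays under the chosen settings. With each array left out in turn, 0 to 1 member probes passed, Hba-x in both cases (without CD replicate 1 and without HFD replicate 1), and 0 to 2 genes of the globin and red cell lists, namely Hba-x and Hbb-bh2. The embryonic genes kept a positive difference in every fitted setting. The adult probes turned sign without CD replicate 2 (Hba-a1 0.19 and 0.20, Hba-a2 0.17, Hbb-b1 0.30, Hbb-b2 0.14, Hbb-bt 0.24), with no scaling between arrays (Hba-a1 0.0613 and 0.0205, Hba-a2 0.0585, Hbb-b1 0.0668, Hbb-b2 0.0205, Hbb-bt 0.023) and, for Hba-a1 probe a, Hba-a2 and Hbb-b1, without HFD replicate 1 (0.0101, 0.0092 and 0.0508). Their lowest values came without CD replicate 1 (Hba-a1 -0.291 and -0.381, Hba-a2 -0.278, Hbb-b1 -0.386, Hbb-b2 -0.319, Hbb-bt -0.415). With no scaling the median over all probes was 0.14 instead of 0.03, so the adult differences stayed below that median. The embryonic minus adult difference of 0.85 was 0.74 to 0.85 under the other scalings and backgrounds, 0.16 to 1.53 with an array left out, and -0.0346 with the arrays of replicate number 1 alone. The replicate number as a block left 0 member probes past the cutoffs (no unadjusted p under 0.05 among them, with differences of 1.17 for Hba-x and 0.60 for Hbb-bh1). The numbers are not stated to pair the arrays, and over 41332 probes the deviations of the same-numbered arrays from their group means had a correlation of -0.10, although sex-linked transcripts matched by number. Slide and scan could not be used as a block. The cause of these changes was not tested.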
